A study of Homo sapiens with 32 samples.

Results

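Peaks of N6-methyladenosine (m6A) RNA sequencing were examined in the 1.5 Mb outside the centromere gaps of 9 human chromosomes, on both sides of each gap. The gaps of chromosomes 1, 2, 4, 7, 10, 16, 17, 20 and 21 were taken as intervals on hg19, the build named in the submitters' processing notes, and a peak was a member when it lay within 1.5 Mb of a gap. The rule used positions only and no measured value. It took 4413 of 424904 peaks listed for 6 libraries, and 420491 peaks lay outside. Each flank is called by its chromosome and side, so that 4p is the side of the chromosome 4 gap with the lower coordinates. Of the 18 flanks, 16 held peaks, while the flanks 1q and 16q held none in any library, and no peak overlapped a gap. Whether the assembly holds sequence in 1q and 16q was not checked, so their lack of peaks is not read as a result.

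The cells were PANC-1, an established line of human pancreatic ductal adenocarcinoma. Fragments of total RNA were pulled down with an antibody to m6A and sequenced from both ends beside input RNA. Peak lists stood for 3 groups: CFL1 knockout, METTL3 knockout and control, each with 2 antibody libraries and 2 inputs, 12 of the 32 samples of the series. No treatment is given for these cells beyond the knockouts, and the remaining samples were not analysed here. CFL1 encodes cofilin 1, which severs actin filaments, and METTL3 encodes the enzyme that transfers the methyl group within the m6A writer complex. The names of the peaks show the library of each, called here CFL1 knockout 3 and 5, METTL3 knockout 3 and 5, and control 1 and 2. The knockout names also carry the letters si, whose meaning no source used here gives, and the labels' word, knockout, was followed. Whether a knockout line was 1 clone is not stated, and peak lists cannot show whether either gene was disrupted. The labels do not say whether the libraries of a group were grown as separate cultures, and their spread may be technical.

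Centromere gaps are stretches of long satellite arrays that the hg19 assembly leaves unsequenced. The DNA beside them is known for segmental duplications, blocks that occur in near-identical copies on the same or on other chromosomes, for satellite repeats and for few genes, among them clusters of zinc-finger genes. In the RefSeq annotation of GRCh38.p14, the protein-coding genes next to the long gene-free stretch at the centromere include ZNF716 on 7p, ZNF37A on 10p, ZNF33B on 10q and ZNF337 on 20p, which encode zinc-finger proteins, and KCNJ18 on 17p, which encodes a potassium channel. These names give the surroundings only, and no peak was assigned to a gene. m6A is laid on RNA by the methyltransferase complex at short sequence motifs and is read by proteins that act on splicing, export and decay. A peak is a stretch where antibody reads exceeded their background; its fold is that excess as a ratio, and its −log10 q is the strength of the call after correction for multiple tests. Both are the authors' values. A short read from duplicated DNA can align to several copies, and no source used here says how such reads were handled; its part in any value below was not tested.

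The 2 knockouts listed more flank peaks than control, although their lists were shorter overall. CFL1 knockout 3 and 5 held 805 and 761 flank peaks, METTL3 knockout 3 and 5 held 726 and 761, and control 1 and 2 held 655 and 705. These were 1.11% and 1.15% of the library's peaks in CFL1 knockout cells, 1.14% and 1.17% in METTL3 knockout cells, and 0.844% and 0.887% in control. All 4 knockout libraries lay above both control libraries. The exact 95% binomial intervals cover no more than counting error and did not overlap between knockout and control libraries: the lowest bound among the knockout libraries was 1.03%, in CFL1 knockout 3, and the highest among the control libraries was 0.955%, in control 2. Neighbouring peaks are not independent, and read depth is unknown from peak lists.

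The share averaged 1.13% ± 0.0290 in CFL1 knockout cells, 1.15% ± 0.0246 in METTL3 knockout cells and 0.866% ± 0.0305 in control (SD, n = 2 each). The CFL1 knockout exceeded control by 0.262 percentage points and the METTL3 knockout by 0.289. In an exact two-sided permutation of libraries, 2 against 2, both had p = 0.333, the smallest that this design allows. Both comparisons use the same control libraries. With the 4 knockout libraries set against the 2 control libraries, the share was 1.32 times as high and the exact permutation p was 0.0667, again the smallest possible, so no test of this share could pass 5%. The knockouts themselves differed by −0.0269 percentage points (CFL1 minus METTL3, exact permutation p = 0.667). The length covered by flank peaks was also higher in the knockouts, with 402 and 405 kb in CFL1 knockout cells, 443 and 414 kb in METTL3 knockout cells, and 321 and 350 kb in control.

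**Figure D1:**
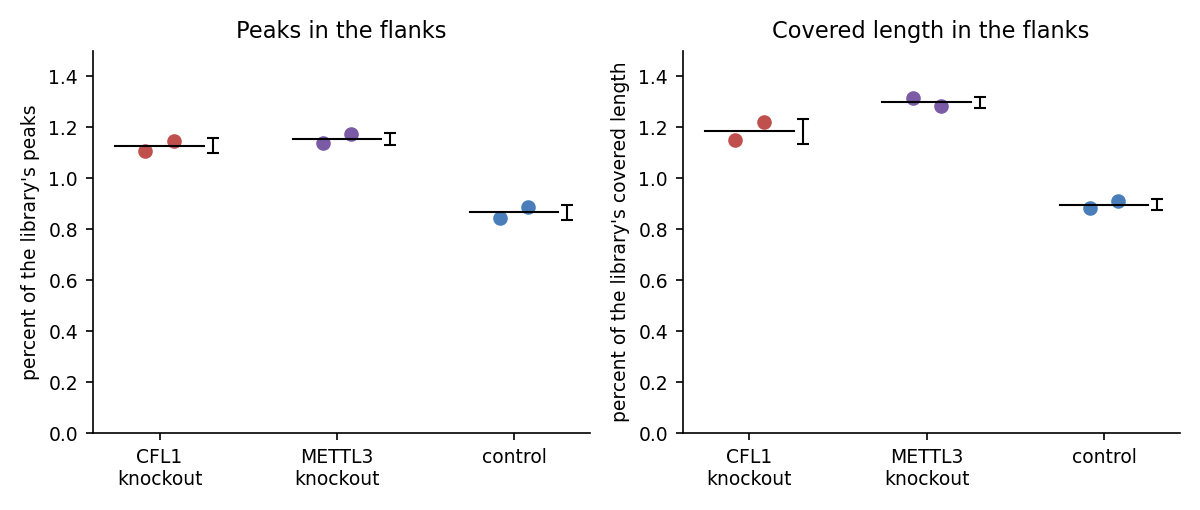
Share of each library's peaks that lie in the flanks, in percent, for the CFL1 knockout, the METTL3 knockout and control. Dots are libraries, lines are means of 2 libraries and bars the SD; the 4 knockout libraries lie between 1.11% and 1.17%, above both control libraries.

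The ratio of shares was larger among peaks of low −log10 q, while a lower limit on fold raised it. Among peaks with a −log10 q of 10 or more, flank shares were 1.03% to 1.09% in the 4 knockout libraries and 0.940% and 0.965% in control, a ratio of 1.12. Among peaks under that limit they were 1.15%, 1.28%, 1.20% and 1.26% in CFL1 knockout 3 and 5 and METTL3 knockout 3 and 5, and 0.775% and 0.832% in control 1 and 2, a ratio of 1.52. The groups did not overlap on either side of the limit. Among peaks with a fold of 4 or more, flank shares were 1.22% to 1.28% in the knockout libraries and 0.859% and 0.878% in control. That ratio was 1.44, against 1.32 for all peaks. Peak numbers within the names skip values, so peaks had been removed or numbers left unused before deposit. Between neighbouring flank peaks, 48.6% and 37.1% of the numbers were skipped in CFL1 knockout 3 and 5, 40.3% and 37.0% in METTL3 knockout 3 and 5, and 22.6% and 25.2% in control 1 and 2. Elsewhere the shares were 50.3%, 42.0%, 44.0% and 41.8% in the knockout libraries, in that order, and 22.5% and 28.7% in control. Counted with the skipped numbers, flanks took 1.04% to 1.06% of the numbers in the knockout libraries and 0.827% and 0.828% in control.

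Most flanks shared the direction. A flank with a mean of at least 20 peaks per library was compared by the rule that all libraries of one group lie above all of the other in share of library peaks, and 13 flanks qualified. The CFL1 knockout was higher than control in 10 and lower in 1, against 37.1% higher and 41.8% lower among 1095 windows of 1.5 Mb elsewhere. The METTL3 knockout was higher in 11 and lower in 1, against 41.6% higher and 39.3% lower elsewhere. All 4 knockout libraries were higher in 10 and lower in 0 of the 13 flanks, against 31.6% higher and 33.2% lower elsewhere. Among peaks with a −log10 q of 10 or more, a limit applied to this count after seeing the data, all 4 were higher in 4 of 13 flanks, against 24.2% of 1042 windows elsewhere.

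**Figure D2:**
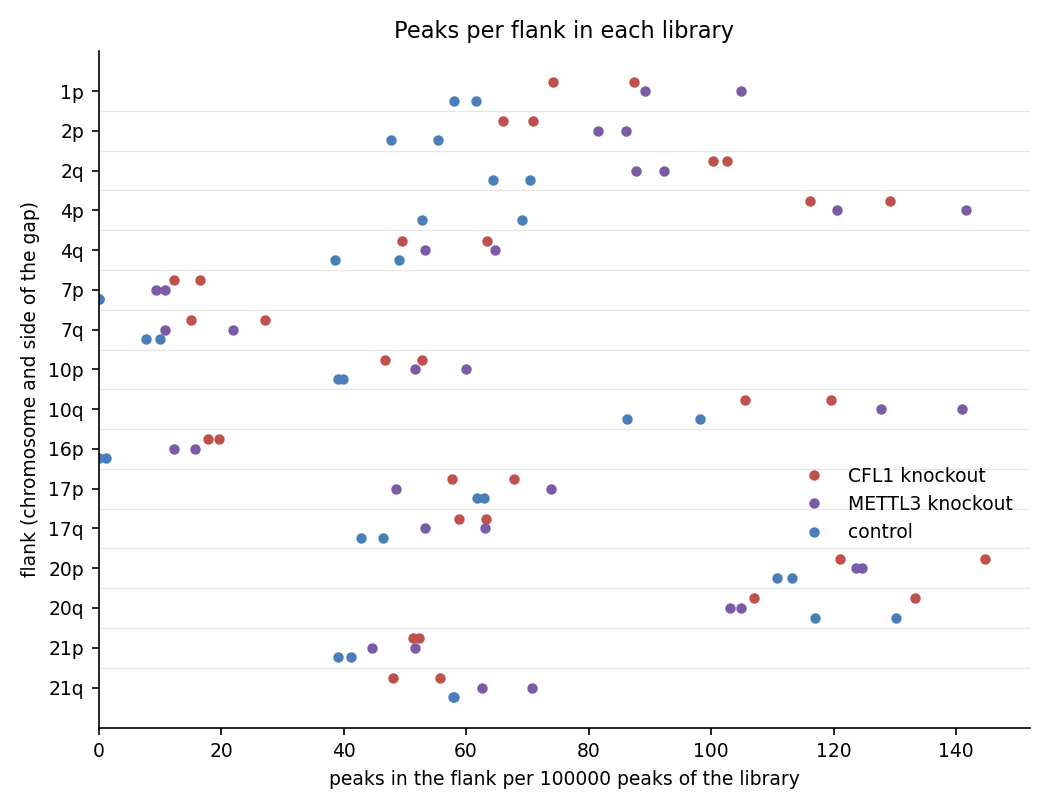
Peaks in each flank per 100000 peaks of the library, with 1 dot per library and the knockouts marked apart from control. The knockout dots lie to the right of the control dots in flank 4p, and the 4 knockout dots as a set overlap control in flanks 17p, 20q and 21q. In 21q the CFL1 knockout lies to the left and the METTL3 knockout to the right of control, and in 20q the METTL3 knockout lies to the left.

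Flank 4p showed the largest difference in share. It held 94 and 77 peaks in CFL1 knockout 3 and 5, 77 and 92 in METTL3 knockout 3 and 5, and 41 and 55 in control 1 and 2. All 4 knockout libraries lay above control, by a mean of 0.0659 percentage points of library peaks. Flank 1p followed the same direction with 54 and 58 peaks in CFL1 knockout cells, 67 and 58 in METTL3 knockout cells, and 45 and 49 in control. Flank 2q held 73 and 68 peaks in CFL1 knockout cells, 56 and 60 in METTL3 knockout cells, and 50 and 56 in control.

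In flanks 17p, 20q and 21q the 4 knockout libraries, taken as a set, overlapped control. Flank 20q held 97 and 71 peaks in CFL1 knockout cells, 67 and 67 in METTL3 knockout cells, and 101 and 93 in control. As a share of library peaks, the METTL3 knockout lay below control and the CFL1 knockout overlapped it. In flank 17p there were 42 and 45 peaks in CFL1 knockout cells, 31 and 48 in METTL3 knockout cells, and 48 and 50 in control, and each knockout overlapped control in share. In flank 21q the CFL1 knockout had the lower share and the METTL3 knockout the higher share, with control between them.

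In 2 flanks nearly every peak came from a knockout library, at counts too low for the rule above. Flank 7p held 9 and 11 peaks in CFL1 knockout cells, 6 and 7 in METTL3 knockout cells, and 0 and 0 in control. Flank 16p held 13 and 13 in CFL1 knockout cells, 10 and 8 in METTL3 knockout cells, and 0 and 1 in control. Flank 7q, across the gap from 7p, held 11 and 18 in CFL1 knockout cells, 14 and 7 in METTL3 knockout cells, and 6 and 8 in control. As shares of library peaks, all 4 knockout libraries lay above both control libraries in these 3 flanks, although counts in 7q overlapped between the METTL3 knockout and control. A count of 0 in a peak list means that nothing passed the authors' threshold, which is not given here.

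The groups lay farthest apart at middle distances from the gap. Peaks were counted in classes of distance that were chosen after the counts had been seen. Between 300 and 700 kb from a gap there were 230 and 202 peaks in CFL1 knockout cells, 198 and 216 in METTL3 knockout cells, and 96 and 109 in control. These were 0.305% to 0.333% of the peaks of knockout libraries and 0.124% to 0.137% of those of control libraries, a ratio of 2.42. Nearer than 300 kb there were 139 and 144 peaks in CFL1 knockout cells, 143 and 152 in METTL3 knockout cells, and 102 and 115 in control, a ratio of shares of 1.57. From 700 kb to 1500 kb there were 436 and 415, 385 and 393, and 457 and 481, in the same order of groups, a ratio of shares of 1.02.

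**Figure D3:**
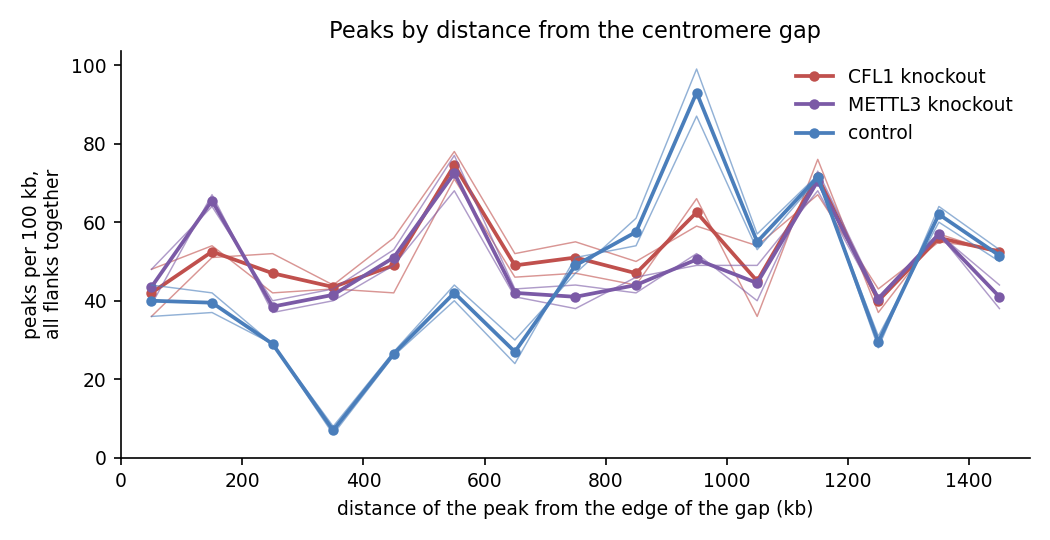
Flank peaks by distance from the edge of the gap in classes of 100 kb, summed over all flanks. Thin lines are libraries and thick lines are group means. In counts, all 4 knockout libraries lie above both control libraries from 100 to 700 kb and from 1200 to 1300 kb, and below them from 800 to 1000 kb. Counts are not divided by the peaks of the library, and the knockout lists were shorter, so shares can be ordered otherwise.

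The widest contrast was at 300 to 400 kb, with 44 and 43 peaks in CFL1 knockout cells, 40 and 43 in METTL3 knockout cells, and 6 and 8 in control. At 900 to 1000 kb the order was turned, with 59 and 66 in CFL1 knockout cells, 49 and 52 in METTL3 knockout cells, and 87 and 99 in control. Of the 15 classes of 100 kb, these lay farthest apart in each direction, and no value overlapped between knockouts and control in either. Each held a flank with a large part of the contrast, which was left out in turn after seeing the data. Without 4p, the class at 300 to 400 kb held 16 and 15 peaks in CFL1 knockout cells, 16 and 18 in METTL3 knockout cells, and 4 and 5 in control. Without 20q, the class at 900 to 1000 kb held 53 and 63, 48 and 50, and 60 and 76, in the same order of groups, and there the CFL1 knockout overlapped control. At a −log10 q of 10 or more, the span from 300 to 700 kb held 100 and 87 peaks in CFL1 knockout cells, 92 and 90 in METTL3 knockout cells, and 39 and 48 in control, a ratio of shares of 2.03.

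Several flanks carried the span from 300 to 700 kb. All 4 knockout libraries had a higher share there than both control libraries in 11 of the 15 flanks with a peak in that span, and lower in 0. Among 6508 windows of 400 kb elsewhere with a peak in any library, 30.3% were higher and 17.1% lower. The span was chosen after its counts had been seen and those windows were not, so the 2 shares are no like comparison. Some of the 11 flanks held few peaks there, such as 4q with 1 and 1 in CFL1 knockout cells, 1 and 3 in METTL3 knockout cells, and 0 and 0 in control. Flank 4p held 52 and 41 peaks there in CFL1 knockout cells, 38 and 50 in METTL3 knockout cells, and 7 and 8 in control. Flank 20q held 25 and 21 in CFL1 knockout cells, 15 and 14 in METTL3 knockout cells, and 2 and 2 in control, although the whole of 20q was not higher. Flank 20p held 21 and 28, 24 and 22, and 12 and 11, in the same order of groups. Without chromosome 4 the ratio was 2.04, and without chromosome 20 it was 2.23.

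Stretches of 100 kb were compared by the same rule. Of 63 stretches with a mean of at least 5 peaks per library, all 4 knockout libraries had a higher share than control in 29, or 46%, against 27.5% of 5160 windows of the same size elsewhere. They had a lower share in 12, or 19%, against 30.8% elsewhere. The stretches named next are those farthest apart and were picked by their values, so their counts are a description. At chr4:49260001-49360000 there were 28 and 28 peaks in CFL1 knockout cells, 24 and 25 in METTL3 knockout cells, and 2 and 3 in control. At chr20:29770001-29870000 there were 21 and 17, 12 and 12, and 0 and 0, in the same order of groups.

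The opposite order was met on the same chromosome arm. At chr20:30270001-30370000, the part of 20q at 900 to 1000 kb from the gap, there were 6 and 3 peaks in CFL1 knockout cells, 1 and 2 in METTL3 knockout cells, and 27 and 23 in control. At chr20:30670001-30770000 there were 8 and 4, 3 and 4, and 16 and 19, in the same order of groups. Flank 20q thus held a stretch near the gap where control had no peaks and stretches farther out where control had most of them. Other stretches of 20q as far out had the higher share in all 4 knockout libraries. At 1000 to 1100 kb there were 15 and 10 peaks in CFL1 knockout cells, 12 and 8 in METTL3 knockout cells, and 6 and 4 in control. At 1200 to 1300 kb there were 9 and 5, 6 and 6, and 3 and 5, in the same order of groups. Control also had the higher counts at chr21:15188001-15288000 in flank 21q, with 13 and 16 in CFL1 knockout cells, 11 and 18 in METTL3 knockout cells, and 24 and 25 in control.

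Overlap of peaks between the lists was measured next. A peak counted as absent from another list when it did not touch any of its peaks by at least 1 bp. Of 1358 distinct control flank peaks, 627 were absent from the CFL1 knockout list, or 46.2% (exact 95% interval 43.5% to 48.9%), and outside the flanks the share was 57.9%. From the METTL3 knockout list 625 of them were absent, or 46.0% (43.3% to 48.7%), and outside the flanks the share was 57.8%. In both control libraries the share absent was lower in the flanks: flank minus other peaks gave −13.1 and −10.3 percentage points in control 1 and 2 for the CFL1 knockout, and −12.5 and −10.9 for the METTL3 knockout. No test of these differences was made, and the intervals treat neighbouring peaks as independent.

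In the other direction, 870 of 1565 flank peaks of the CFL1 knockout were absent from control, or 55.6% (53.1% to 58.1%), and outside the flanks the share was 53.2%. For the METTL3 knockout it was 811 of 1483, or 54.7% (52.1% to 57.2%), against 49.3% outside. All 4 knockout libraries lay above their own other peaks, by 2.09 and 2.81 percentage points in CFL1 knockout 3 and 5 and by 6.37 and 4.62 in METTL3 knockout 3 and 5. The level of these shares moved with the threshold. Among flank peaks with a −log10 q of 10 or more, control peaks were absent from the CFL1 knockout in 27.6% and from the METTL3 knockout in 26.9%, and knockout peaks were absent from control in 34.6% and 35.4%, CFL1 first. The shares outside the flanks were not computed at that limit, so whether flanks differ from other peaks there is unknown. Between single libraries, a mean of 63.6% of the flank peaks of a CFL1 knockout library were found in the other CFL1 knockout library, 62.4% in a METTL3 knockout library and 39.5% in a control library. For a METTL3 knockout library the means were 69.5% in the other METTL3 knockout library, 61.0% in a CFL1 knockout library and 39.9% in a control library. For peaks elsewhere, the share found in the other library of the group was 60.7% and 66.0% in CFL1 knockout 3 and 5. In METTL3 knockout 3 and 5 it was 69.1% and 69.5%. Means between groups were not taken for peaks elsewhere, so this pattern cannot be called particular to the flanks.

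Joined where they overlapped, the peaks of all libraries formed 1654 flank sites and 172262 sites elsewhere. All 4 knockout libraries and neither control library called 99 flank sites, or 5.99% (exact 95% interval 4.89% to 7.24%), against 3.59% of sites elsewhere. Both control libraries and no knockout library called 144, or 8.71% (7.39% to 10.2%), against 13.4% elsewhere. All 6 libraries called 186, or 11.2% (9.76% to 12.9%), against 10.8% elsewhere. A single library called 745, or 45.0%, against 48.3% elsewhere. Sites found by both libraries of 1 knockout alone made up 2.84% for CFL1 and 3.02% for METTL3, against 2.92% and 2.64% elsewhere. No test was made between these shares.

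**Figure D4:**
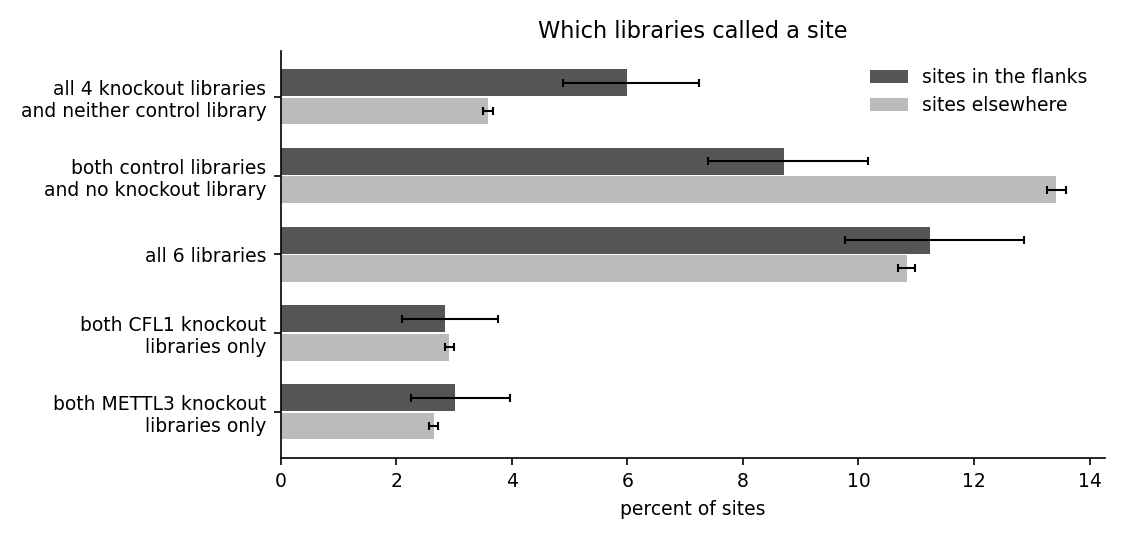
Percent of sites in each class of libraries that called them, for sites in the flanks and for sites elsewhere, with exact 95% binomial intervals. Sites of all 4 knockout libraries alone were 5.99% in the flanks and 3.59% elsewhere, and sites of both control libraries alone were 8.71% and 13.4%.

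Sites of all 4 knockout libraries alone were 22 of 199 in 4p and 7 of 18 in 16p. In other flanks with many sites they were 13 of 196 in 20p, 9 of 188 in 20q, 8 of 169 in 10q and 7 of 120 in 1p. Sites of both control libraries alone were 38 of 188 in 20q and 26 of 196 in 20p. Flank 20q thus held sites of both kinds, as did most flanks with peaks, such as 1p with 7 and 11 and 2p with 5 and 9. Over all flanks, sites of the 4 knockout libraries alone were 5.99%, against 3.59% elsewhere. Those of both control libraries alone were 8.71%, against 13.4% elsewhere.

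The strongest site was called in every library in 13 of the 16 flanks, and its −log10 q often differed between groups. Of the 1654 sites, 690 reached a −log10 q of 10 or more, 105 reached 100 and 21 reached 300 in some library. The strongest was chr1:120836928-120839829 in flank 1p, with a −log10 q of 575 and 695 in CFL1 knockout cells, 651 and 650 in METTL3 knockout cells, and 100 and 90.3 in control. Its fold was 16.3 and 20.5 in CFL1 knockout cells, 17.8 and 22.02 in METTL3 knockout cells, and 8.14 and 6.43 in control, so that both measures were higher in every knockout library. A second site of the same flank, chr1:121129332-121129993, had a −log10 q of 139 and 203 in CFL1 knockout cells, 289 and 480 in METTL3 knockout cells, and 25.3 and 36.0 in control.

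Other flanks had strong sites with closer values. At chr21:15745931-15746770 the −log10 q was 274 and 353 in CFL1 knockout cells, 526 and 460 in METTL3 knockout cells, and 196 and 291 in control. The CFL1 knockout overlapped control there and the METTL3 knockout did not. At chr20:30309475-30311215 it was 240 and 293, 410 and 434, and 225 and 272, in the same order of groups. At chr4:48500768-48501857, the strongest site of 4p, it was 124 and 197 in CFL1 knockout cells, 270 and 230 in METTL3 knockout cells, and 180 and 298 in control, and both knockouts overlapped control.

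Both flanks of chromosome 17 had their strongest site in control. At chr17:21437151-21438979 in 17p the −log10 q was 36.9 and 64.3 in CFL1 knockout cells, 60.2 and 27.1 in METTL3 knockout cells, and 246 and 388 in control. Fold did not separate there, with 9.61 and 13.2 in CFL1 knockout cells, 14.5 and 9.09 in METTL3 knockout cells, and 11.5 and 14.6 in control. At chr17:26724886-26726197 in 17q the −log10 q was 39.2 and 48.2, 92.0 and 87.2, and 282 and 380, in the same order of groups. Of the strongest sites of the 16 flanks, the 2 on chromosome 17 were those called in all libraries where every knockout library lay below both control libraries. The read depth behind these values is unknown.

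The widest site, chosen after its values were seen, was also the strongest of flank 10q. It spanned 27045 bp at chr10:42790520-42817564. Peaks covered 26155 and 26803 bp of it in CFL1 knockout cells, 26874 and 26802 bp in METTL3 knockout cells, and 1638 and 3109 bp in control. In 3 of the 4 knockout libraries nearly the whole was 1 peak, while CFL1 knockout 3 split it into 3; control 1 and 2 had 3 and 5 separate peaks in that site, the widest of 1084 and 1233 bp. Its highest −log10 q was 225 and 349 in CFL1 knockout cells, 336 and 399 in METTL3 knockout cells, and 9.56 and 51.2 in control. A site of 4914 bp at chr20:25833817-25838730 had the same order, with 149 and 211, 181 and 139, and 8.50 and 7.44. A site of 4894 bp at chr21:15275634-15280527 had 120 and 252 in CFL1 knockout cells, 170 and 358 in METTL3 knockout cells, and 159 and 201 in control, and all groups overlapped.

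Some strong sites were called in the knockouts alone. The strongest was chr7:57071826-57072194 in flank 7p, with a −log10 q of 211 and 189 in CFL1 knockout cells and 71.4 and 97.3 in METTL3 knockout cells, and no peak in control. At chr2:91828128-91828470 it was 134 and 181 in CFL1 knockout cells and 117 and 114 in METTL3 knockout cells. At chr16:33955182-33955965 it was 159 and 76.5 in CFL1 knockout cells and 36.8 and 18.5 in METTL3 knockout cells. Its neighbour at chr16:33954054-33955025 had 132 and 76.3 in CFL1 knockout cells and 59.6 and 24.7 in METTL3 knockout cells. At chr21:15429562-15431782 the CFL1 knockout had 133 and 73.5, and the METTL3 knockout 3.15 and 2.57, close to the weakest calls. At all 6 of the strongest sites of this class, both CFL1 knockout libraries exceeded both METTL3 knockout libraries in −log10 q. The 6 sites are not all separate places, so they are not independent. Besides the neighbours named above, the remaining site, chr7:57070948-57071662, lies beside the strongest one in flank 7p. Its −log10 q was 95.1 and 139 in CFL1 knockout cells and 8.72 and 23.6 in METTL3 knockout cells. The sites were taken by their values, and the order was not tested. Whether it holds at the other sites of this class was not examined. Fold had the same order at some of the 6 sites only. At chr21:15429562-15431782 it was 11.8 and 11.7 in CFL1 knockout cells and 3.11 and 2.85 in METTL3 knockout cells. At chr7:57071826-57072194 it was 10.8 and 9.44 in CFL1 knockout cells and 11.6 and 24.8 in METTL3 knockout cells.

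The 6 strongest sites called in control alone had a lower −log10 q than those of the knockouts alone. Median −log10 q outside the flanks was also lower in control, at 7.64 and 7.51 against 9.46 to 11.3 in the knockout libraries. The strongest in control alone, chr17:20904110-20904588, had a −log10 q of 54.5 and 75.6 in control 1 and 2, at a fold of 2.59 and 2.79, and no peak in any knockout library. At chr10:43014011-43014450 the values were 66.5 and 41.1 at a fold of 14.7 and 10.4. The other 4 of the 6 strongest lay in flanks 4p, 1p, 2p and 20q, with a −log10 q between 27.5 and 52.1.

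Flank peaks were compared with the other peaks of their own library for what the rule had not used. Median fold was 5.09 and 4.92 in flanks of CFL1 knockout 3 and 5, against 4.61 and 4.74 elsewhere. In METTL3 knockout 3 and 5 it was 5.44 and 5.15 in flanks, against 4.65 and 4.75 elsewhere, and in control 1 and 2 it was 4.22 and 3.91, against 4.15 and 3.93. Flank peaks were thus higher in 5 of 6 libraries, by a mean of 0.316 (exact sign-flip permutation over libraries, two-sided p = 0.0625, adjusted p = 0.312 over 5 tests by Benjamini-Hochberg). The excess averaged 0.464 in the 4 knockout libraries and 0.0209 in the 2 control libraries (exact permutation p = 0.133). Median −log10 q was lower in flanks in every knockout library and higher in both control libraries, with a mean difference of −0.494 (exact permutation p = 0.312, adjusted p = 0.469). With 6 libraries the smallest possible sign-flip p is 0.03125, so no single result could pass 5% after adjustment over the 5 tests.

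Width and repeatability showed no difference that passed the test. The median width of flank peaks was 330 and 335 bp in CFL1 knockout cells, 365.5 and 326 bp in METTL3 knockout cells, and 345 and 347 bp in control, and differed from other peaks by a mean of 0.25 bp (exact permutation p = 0.969, adjusted p = 0.969). Peaks of at least 2 kb numbered 10 and 18 in flanks of the CFL1 knockout. They numbered 22 and 17 in those of the METTL3 knockout, and 6 and 8 in those of control. Such peaks made up 1.24% and 2.37% of flank peaks in CFL1 knockout 3 and 5, against 1.45% and 1.72% elsewhere. For METTL3 knockout 3 and 5 the shares were 3.03% and 2.23%, against 1.999% and 1.60%. For control 1 and 2 they were 0.916% and 1.13%, against 1.04% and 1.20%. Elsewhere, too, all 4 knockout libraries lay above both control libraries. CFL1 knockout 3 and both control libraries had a lower share in flanks than elsewhere. These shares were not tested. The share of flank peaks that touched a peak of the other library of their group was 63.0% and 64.3% in CFL1 knockout cells, 69.3% and 69.6% in METTL3 knockout cells, and 76.3% and 69.5% in control. It differed from that of other peaks by a mean of 0.738 percentage points (exact permutation p = 0.375, adjusted p = 0.469).

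Twin peaks were searched because copied DNA could give peaks of like shape at different places. A twin pair is 2 peaks of 1 library and 1 flank whose widths and whose summit offsets, read from the same end or mirrored, differ by at most 5 bp. There were 182 and 149 such pairs in CFL1 knockout cells, 98 and 168 in METTL3 knockout cells, and 74 and 85 in control. Per 1000 pairs of peaks these were 6.91 and 6.74 in CFL1 knockout cells, against 5.18 and 4.96 in windows elsewhere. The METTL3 knockout had 4.66 and 7.34 in flanks, against 4.40 and 5.51 elsewhere, and control had 3.94 and 4.06, against 4.63 and 4.23. Flanks lay above other windows in all 4 knockout libraries and below them in both control libraries. The mean difference over the 6 libraries was 0.787 per 1000 (exact sign-flip permutation p = 0.188, adjusted p = 0.469). Its size moved with the tolerance, to 0.160 at 2 bp and 2.14 at 10 bp, and was 0.375 where folds had to be alike as well. None of these passed 5% after adjustment, and with the other tests at their main values none could.

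**Figure D5:**
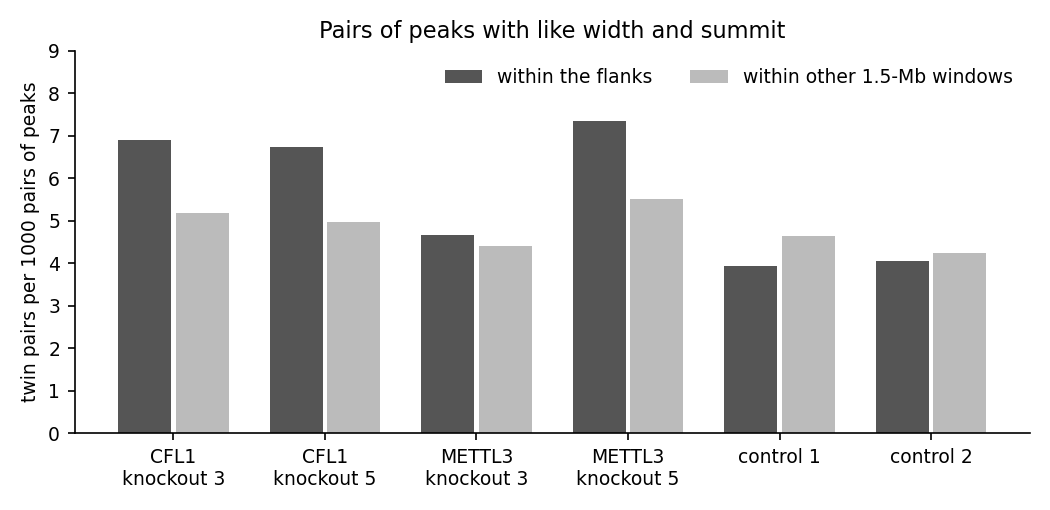
Twin pairs per 1000 pairs of peaks within the flanks and within windows of the same size elsewhere, with bars for each library. The flank bar is the higher one in all 4 knockout libraries and the lower one in control 1 and 2.

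Most twins were narrow, and few recurred. Their median width was 205 and 204 bp in CFL1 knockout cells, 206.5 and 205 bp in METTL3 knockout cells, and 225 and 210 bp in control, while the narrowest peak of every library was 200 bp. Peaks of up to 250 bp made up 34.9% and 34.8% of flank peaks in CFL1 knockout cells, 28.2% and 34.4% in METTL3 knockout cells, and 27.8% and 29.4% in control. The 3 libraries with the highest twin rates in flanks also had the highest shares of narrow peaks there. Elsewhere narrow peaks made up 33.9% and 33.1%, 29.9% and 33.5%, and 29.5% and 28.8%, in the same order of groups. A link between narrow peaks and twin rates was not tested. Among peaks wider than the median of their library, the difference in twins between flanks and other windows was 0.374 per 1000 (exact sign-flip permutation, adjusted p = 0.508). Of 744 pairs of sites that were twins in some library, 5, or 0.672%, were twins in 2 libraries and none in more. Elsewhere 256 of 82149, or 0.312%, were twins in 2 or more libraries. Among the recurrent pairs, the widest, 382 bp, joined chr20:29815516-29816690 and chr20:30157807-30158188, and the next, 350 bp, joined chr4:48293699-48294514 and chr4:49326491-49327052. Counting pairs between flanks as well, 1 of 9447 twin pairs was found in 3 libraries, with a width of 209 bp, at chr7:57322589-57322797 and chr7:61984623-61984968 on the 2 sides of the chromosome 7 gap.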

How the data were processed

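The submitters' processing notes name STAR, MACS2, bedtools and the build hg19; no source used here gives versions, settings or whether input was the background of the calls. Each deposited list joins 2 libraries called separately. The deposited fold is a ratio, the deposited significance is a −log10 q, and the deposited summit offset gives bases from the start of the peak; the 2 value columns of score and −log10 p were not used. Samples were grouped by their titles, since 1 label of treatment reads "none" for antibody samples of control. Only peaks are listed, so depth per sample is unknown.

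Flanks of 1.5 Mb were cut in Python 3.11.15 (numpy 2.4.6, pandas 2.3.3, scipy 1.17.1, matplotlib 3.10.9). No 2 peaks of a library shared an interval. Overlap needed 1 bp. Libraries were the replicates in exact permutation tests, and the 5 tests of flanks against other peaks were adjusted by Benjamini-Hochberg; counting of twins was tested on simulated data. Named sites were the strongest of each flank and up to 6 of the strongest in each class of libraries; other items were named after their values were seen. The members, lists and classes were chosen with earlier results of these data known. Genes were not assigned and no sequence is shown, since a genome of build hg19 was not used here.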

Additional observations from a re-analysis of the deposited data

Results flagged for a closer look

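In flank 21q both METTL3 knockout libraries had a higher share of library peaks than both control libraries, and both CFL1 knockout libraries a lower one. The flank held 35 and 37 peaks in CFL1 knockout cells, 40 and 46 in METTL3 knockout cells, and 45 and 46 in control. The mean share of the CFL1 knockout minus that of the METTL3 knockout was −0.0148 percentage points. That difference was not tested.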

How the results depend on the processing

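The flank share stayed higher in each knockout, and in both together, under all 19, 19 and 21 alternatives of threshold, flank size, merging, chromosomes and libraries. Among these, keeping every line and merging peaks within 100 bp could not change the share. No interval was repeated within a library, and the closest peaks of a library lay 125 to 150 bp apart. The difference in percentage points ranged over left-out libraries from 0.240 to 0.283 for the CFL1 knockout, 0.267 to 0.310 for the METTL3 knockout and 0.254 to 0.297 for both, and over left-out chromosomes from 0.209 to 0.276 for both. Flanks of 0.5 Mb gave a ratio of 1.96 for both. The absent shares moved; taking CFL1 before METTL3, first for control peaks absent from a knockout and then for knockout peaks absent from control, the values were 27.6%, 26.9%, 34.6% and 35.4% at a −log10 q of 10 or more, and 51.8%, 51.1%, 61.8% and 60.6% with peaks within 100 bp merged. An overlap of 50% of the shorter peak gave 49.4%, 48.9% and 57.5% for the first, second and last, and a fold of at least 4 gave 34.5%, 32.9% and 50.5%. With libraries left out they ranged over 45.2% to 55.5%, 45.6% to 52.2%, 53.3% to 61.5% and 54.3% to 61.2%. All of these are shares of flank peaks, and those of other peaks were not computed under the same alternatives. With flanks of 1 Mb the width difference was −11.7 bp and the difference in share found by the partner library −0.700 percentage points. At a −log10 q of 10 or more, flank peaks differed from other peaks by 34.6 bp in width, 0.9498 in fold, −2.36 in −log10 q and 0.0895 percentage points in share found, and with flanks of 1 Mb by 0.424 in fold and −1.04 in −log10 q. Twins with mirrored pairs left out gave 0.656 per 1000. None of these differences of flank from other peaks passed 5% after adjustment. Each was adjusted with the other tests at their main values, and so none could pass. With libraries left out, an alternative added after seeing the data, the mean differences of flank from other peaks ranged over 0.220 to 0.384 in fold, −0.866 to −0.249 in −log10 q, −2.3 to 3.3 bp in width, 0.111 to 1.24 percentage points in share found and 0.580 to 1.08 twins per 1000. Flanks with all 4 knockout libraries higher numbered 10 whichever library was left out and 4 of 13 at a −log10 q of 10 or more. The ratio at 300 to 700 kb was 2.68, 2.78, 2.04 and 2.23 without chromosomes 1, 2, 4 and 20. The cause of these shifts was not tested. No paired analysis was possible because knockout peak names are numbered 3 and 5, which match no replicate number in the labels.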
